A study of Drosophila melanogaster with 3 samples.

Results

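The Cpr genes of Drosophila melanogaster encode cuticular proteins, and 70 protein-coding genes with a symbol made of Cpr and a cytological position were found among the 13945 protein-coding genes on the arms 2L, 2R, 3L, 3R, 4 and X. The rule reads the symbol and no measured value. The gene named Cpr without a digit, which encodes the reductase partner of cytochrome P450 enzymes, was not a member. The binding data are ChIP-seq of the nuclear receptor Eip75B (E75) in whole prepupae, from a single group of 3 biological replicates with males and females pooled and no exact age given. The animals were of the strain Eip75B-MiMIC-GFP, in which an eGFP exon in an intron of Eip75B yields a fusion protein that was precipitated with an antibody against GFP. All replicates carried this insertion, and no untagged animals or second condition were analysed here. Binding in the epidermis, the tissue that makes cuticle, is therefore mixed with that in all other tissues, and binding in fewer cells cannot be told apart from weaker binding in each cell.

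Insect cuticle is an extracellular layer of chitin fibres and proteins that epidermal cells secrete and replace at each moult. Most Cpr proteins share the Rebers and Riddiford consensus, a chitin-binding domain, and their genes often lie in tandem arrays that arose by duplication. Pulses of ecdysone time the switches between larval, pupal and adult cuticle. E75 is itself induced by ecdysone and can hold back the receptor Hr3, which with other factors turns on ftz-f1 in the mid-prepupa, and the ftz-f1 protein in turn activates the pupal cuticle gene Edg84A.

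Eip75B summits were rare at Cpr promoters. A summit is the position of highest signal within a deposited region, and a promoter summit is one within 1 kb of an annotated transcription start. Of the 70 genes, 5 had a promoter summit in the deposited list of 7803 optimal peaks (7.14%, 95% exact Clopper-Pearson interval 2.36% to 15.9%, counting error only), whereas 23.6% of all protein-coding genes had one. The bound genes were Cpr47Ec, Cpr62Ba, Cpr65Ea, Cpr72Eb and Cpr97Eb. A summit in the gene body was found in 4 members (5.71%), Cpr51A, Cpr62Ba, Cpr73D and Cpr97Ea, against 15.2% of all genes. Together 8 members (11.4%) had a summit in either place, against 27% of all genes, and 62 had none.

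Windows of 101 bp centred on 5 of the promoter summits, those of Cpr62Ba, Cpr65Ea, Cpr72Eb and Cpr97Eb, are given as the sequence at the sites that make these genes bound (dm6, plus strand). The 5 motifs searched on both strands were the nuclear receptor core AGGTCA, its longer form TAGGTCA, the ftz-f1 type site TCAAGGTCA, the GAGA factor motif GAGAG and the TATA hexamer TATAAA. Both longer forms contain the core. Capitals mark GAGAG or TATAAA, or the reverse complement of either, which were the motifs that occurred in these windows. The windows lie at chr3L:1828002-1828102 and chr3L:1829657-1829757 (both Cpr62Ba), chr3L:7087453-7087553 (Cpr65Ea), chr3L:16364335-16364435 (Cpr72Eb) and chr3R:27091439-27091539 (Cpr97Eb). The first 2 are in an intron and the others between genes.
Cpr62Ba, downstream summit: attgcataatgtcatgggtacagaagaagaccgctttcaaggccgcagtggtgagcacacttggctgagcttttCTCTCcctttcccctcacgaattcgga
Cpr62Ba, upstream summit: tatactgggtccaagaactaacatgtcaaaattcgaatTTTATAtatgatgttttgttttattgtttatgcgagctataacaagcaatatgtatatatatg
Cpr65Ea: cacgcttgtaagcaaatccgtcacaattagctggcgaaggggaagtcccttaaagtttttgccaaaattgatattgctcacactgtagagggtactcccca
Cpr72Eb: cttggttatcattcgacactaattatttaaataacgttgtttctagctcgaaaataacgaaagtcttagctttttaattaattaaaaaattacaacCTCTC
Cpr97Eb: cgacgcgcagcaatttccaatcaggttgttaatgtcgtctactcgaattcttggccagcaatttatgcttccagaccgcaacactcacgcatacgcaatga

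None of the 9 windows at Cpr summits, those at Cpr47Ec and in gene bodies included, held AGGTCA, which occurred in 2.51% of the windows of the same length at all optimal summits. GAGAG was present in 2 of the 9 windows, against 12.2% of all, and TATAAA in 1, against 20.3%. The share of G and C was 26.7% in the median Cpr window and ranged from 20.8% to 50.5%, with a median of 32.7% over all optimal summits. These are descriptions of a few short windows.

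The replicates gave the same low share. A replicate's top list holds its 7803 highest-signal regions, as many as the optimal list. A promoter summit was found for 5 members in the top list of replicate 1, for 7 in replicate 2 and for 7 in replicate 3, which is 9.05% ± 1.65 (SD, n = 3) of the 70. The share of all genes was 24.9% in replicate 1, 25.7% in replicate 2 and 24.1% in replicate 3. A summit in the gene body was found for 4, 5 and 5 members, against 14.9%, 15.7% and 15.7% of all genes. In each replicate the members' promoter share lay below that of all genes. The spread between replicates is over the same 70 genes and does not measure how far genes differ. Among genes of up to 1 kb, 3, 2 and 3 of 33 members had a promoter summit in replicates 1, 2 and 3. The shares of all genes of that length were 11.2%, 11% and 9.78%. Cpr62Ba, Cpr65Ea, Cpr72Eb and Cpr97Eb had a promoter summit in all 3 top lists, and Cpr47Ec and Cpr66D in 2 of them. Cpr49Ah, Cpr51A and Cpr73D each had one in a single replicate, and 61 members had none.

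Most Cpr genes are short, and short genes of any kind were bound less often. The median Cpr gene is 1093.5 bp long and the range is 457 to 18590 bp, whereas the median over all protein-coding genes is 2166 bp. Among genes of up to 1 kb, 3 of 33 members (9.09%) and 10.2% of all genes had an optimal promoter summit, so at 1 kb the members stood near the background of their length. At 500 bp, 0 of these 33 members and 7.36% of all genes of that length had one. Among genes of over 1 kb to 2 kb, the share was 1 of 20 members (5%) against 17%. Of the 10 members of over 2 kb to 5 kb none was bound (a count of 0 leaves room for up to 30%), and the share of all genes of that length was 24.3%. Limits for a count of 0 are given here and below as 3 divided by the number of genes, and are not exact intervals. Of the 7 members longer than 5 kb, 1 was bound (14.3%), against 40.5% of all such genes. The members' share was below that of all genes in each class, by the least among the shortest genes, and the longer classes hold few members. Body summits also went with length. They were found in 0 of 33 and 0 of 20 members in the 2 shorter classes, against 0.934% and 3.57% of all genes. In the class of over 2 kb to 5 kb, 2 of 10 members (20%) had one, against 10.4%, and above 5 kb 2 of 7 (28.6%), against 44.4%, so the body count of 4 was not below the background in every class of length. By the number of annotated starts, 63 members have a single start, and 4 of these (6.35%) were bound, against 16.6% of all genes with a single start.

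**Figure D1:**
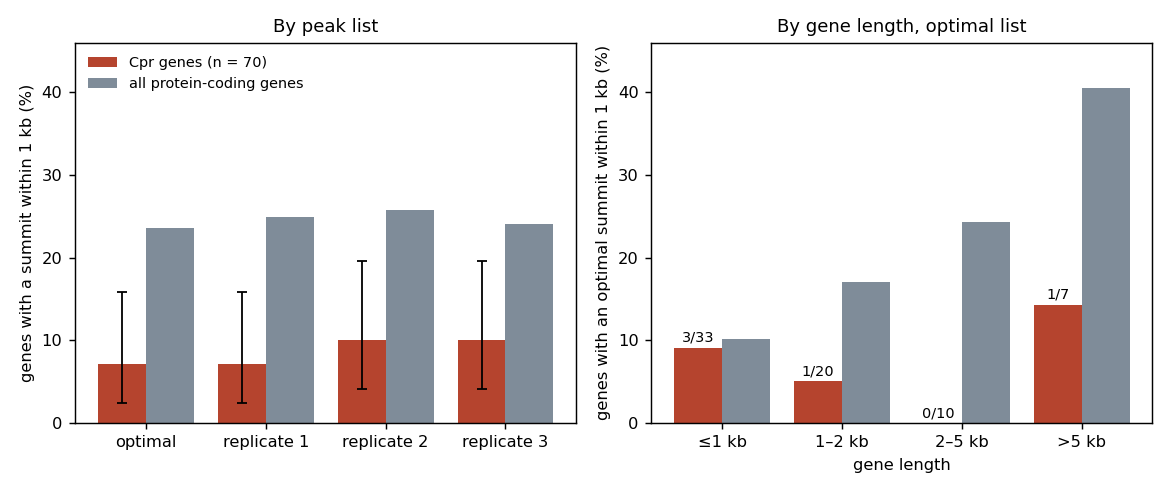
Share of genes with a summit within 1 kb of a start, for the 70 Cpr genes (red, with 95% exact intervals for counting error in the left panel) and for all protein-coding genes (grey), by peak list (left) and by gene length in the optimal list (right; bound members over members above each red bar). The Cpr share was 7.14% to 10% in the 4 lists, and among genes of up to 1 kb it was 9.09%, close to the 10.2% of all genes of that length.

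The strongest promoter peak of the family was at Cpr72Eb (3L, 16364899 to 16365707, plus strand). Its summit at 16364385 lay 514 bp upstream of the start, between Cpr72Ea and Cpr72Eb. The authors' signal, the peak caller's value per region, was 186 in replicate 1, 179 in replicate 2 and 159.7 in replicate 3, at ranks 551, 563 and 689 of the 30000 regions in each whole list. The replicates did not differ much in rank, and no other peak at a Cpr gene ranked as high in any of them. In the optimal list its signal was 539, rank 566 of 7803. The other promoter peaks of the family had signals of 114, 128, 147, 148 and 201, and all but the last were below the optimal list's median of 164.

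Cpr62Ba (3L, 1824129 to 1831783, minus strand), one of the few long members, was the only one with 2 promoter summits. Both lay in its introns, 765 bp upstream and 890 bp downstream of the inner of its 2 annotated starts. The upstream summit at 1829707 had a signal of 55.8 in replicate 1, 65.4 in replicate 2 and 77.4 in replicate 3. The downstream summit at 1828052 had 40.5, 59.4 and 29.1. The upstream summit ranked inside all 3 top lists, and the downstream one ranked 8798 in replicate 3, outside its top list.

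The summit counted for Cpr65Ea (3L, 7086003 to 7086608, minus strand) lay at 7087503, 895 bp upstream, in the space between this gene and Cpr65Eb, whose start was 1284 bp away. Its signal was 54.8 in replicate 1, 51.4 in replicate 2 and 41.6 in replicate 3, within all top lists. Cpr97Eb (3R, 27089704 to 27091130, minus strand) had the nearest summit of all members, 359 bp upstream at 27091489. The regions holding that position had signals of 46.8, 73.7 and 34.8, and ranked 5042, 2799 and 7133, so this peak was far higher in replicate 2 than in replicate 3. In replicate 3 the summit of that region was shifted by 178 bp. Cpr47Ec (2R, 11259106 to 11259976, minus strand) had the weakest of these peaks. Its summit at 11259073 lay 903 bp downstream of the start, beyond the 3' end of the gene, with signals of 40.1, 27.6 and 48.7. It ranked 10542 in replicate 2 and so was absent from that top list.

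**Figure D2:**
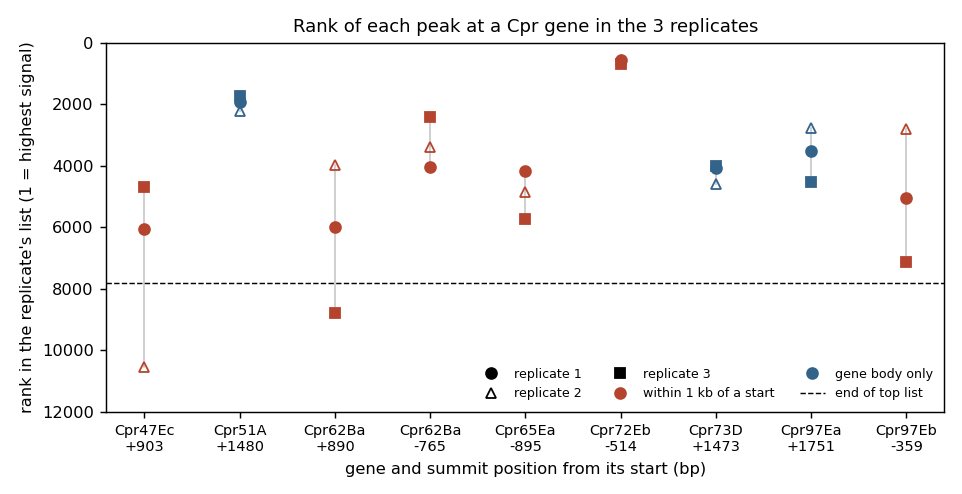
Rank of the 9 optimal peaks at Cpr genes in the whole list of each replicate (y axis, rank 1 at the top; symbols for replicates; red for peaks within 1 kb of a start, blue for peaks in the gene body only; dashed line, the last rank of the top list). The peak at Cpr72Eb stood at ranks 551 to 689, and the peaks at Cpr47Ec and in the downstream part of Cpr62Ba each crossed the dashed line in 1 replicate.

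The gene body summits at the 3 members without a promoter summit were in introns. Cpr51A (2R, 14512559 to 14515211, minus strand) held a summit at 14513731 with signals of 93.4 in replicate 1, 85.0 in replicate 2 and 95.8 in replicate 3. It lay 1480 bp from the start of Cpr51A but 299 bp from that of CG30197, a gene in the same place. In Cpr73D (3L, 16939100 to 16957689, minus strand), the longest member, the summit at 16941476 had signals of 55.8, 53.4 and 54.6. In Cpr97Ea (3R, 27083130 to 27087778, minus strand), the summit at 27084868 had signals of 61.8, 73.9 and 49.95. These 3 peaks lay in all top lists. Of the 9 peaks at Cpr genes, 7 lay in the top lists of all 3 replicates, against 65.2% of all optimal peaks, and their median signal was 173, against 164.

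The few promoter summits of the family lay far from the start. Over the 3296 bound protein-coding genes, the nearest summit was at a median of 160.0 bp from a start, and 67.6% of the bound genes had it within 250 bp. The median for bound genes of up to 1 kb was 181 bp, with 59.7% within 250 bp. Among the 5 bound members the distances were 359, 514, 765, 895 and 903 bp, and none lay within 250 bp. In the top lists, the members' medians were 819 bp in replicate 1, 627 bp in replicate 2 and 785 bp in replicate 3, against 168, 142 and 163 bp for all bound genes. A single member, in replicate 3, had a summit within 250 bp. With 500 bp in place of 1 kb, 1 member was left, Cpr97Eb, against 20.1% of all genes. Just outside 1 kb lay Cpr72Ea, with a summit of signal 161 at 1051 bp upstream, and Cpr65Eb, at 1284 bp from the summit counted for Cpr65Ea. Cpr65Ea and Cpr47Ec were the last inside.

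**Figure D3:**
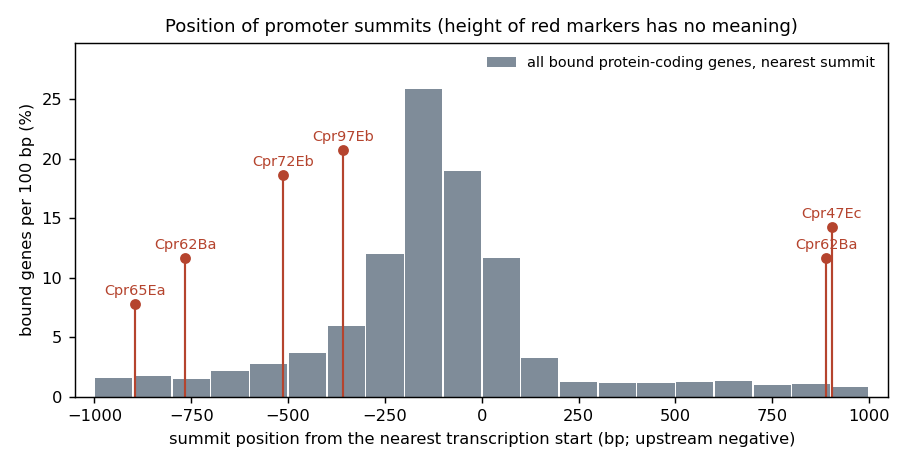
Position of the nearest promoter summit relative to the transcription start for all bound protein-coding genes (grey, percent of bound genes per 100 bp; upstream is negative) and of the 6 promoter summits of Cpr genes (red markers, whose height has no meaning). The grey bars peak just upstream of the start, and the red markers lie at 359 bp or more from it on either side.

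Optimal summits were sparse over the family's windows as a whole. The merged 1 kb windows around Cpr starts cover 143.5 kb and held 6 summits, or 0.418 per 10 kb, against 1.22 per 10 kb over the windows of all genes and 0.583 per 10 kb over the 6 arms. The bodies of Cpr genes, 155 kb in all, held 5 summits, or 0.322 per 10 kb, against 0.560 per 10 kb over all gene bodies. The nearest optimal summit lay at a median of 9710 bp from a Cpr start, with quartiles of 3324 and 17554 bp, and the median over all genes was 6498 bp. The replicates' top lists gave members a median of 10492 ± 2010 bp (SD, n = 3). Without replicate 1, 2 or 3, on shorter lists, the median was 15312, 13378.5 and 16208 bp for members, and 8709, 8428 and 8709 bp for all genes. By length, the members' median was 10796 bp up to 1 kb, 5864 bp over 1 kb to 2 kb, 15226.5 bp over 2 kb to 5 kb and 11610 bp above 5 kb. For all genes it was 9742.5, 7186, 6412 and 2817.5 bp in the same order, so members lay nearer to a summit than all genes in the class of over 1 kb to 2 kb and farther in the others. Within 5 kb of a start, 24 members (34.3%) had a summit, against 44.1% of all genes, and within 20 kb 78.6% had one, against 80.0%.

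**Figure D4:**
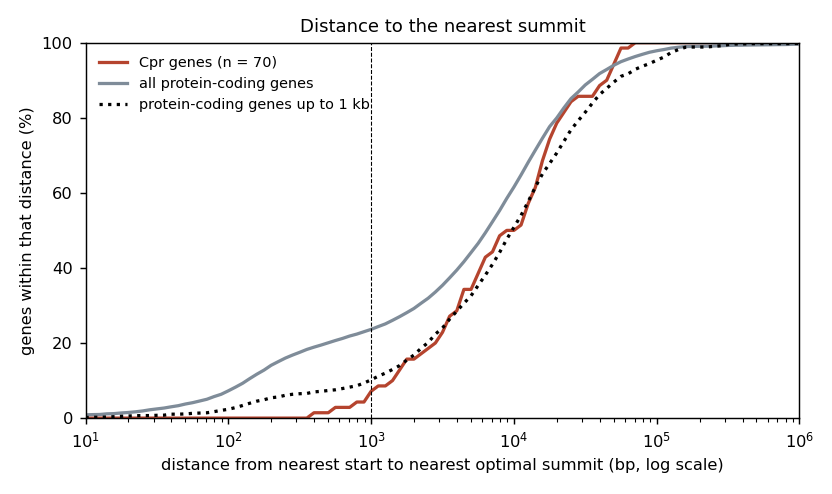
Percent of genes (y axis) whose nearest optimal summit lies within a given distance of a start (x axis, bp, log scale), for Cpr genes (red), all protein-coding genes (grey) and all protein-coding genes of up to 1 kb (dotted), with a dashed line at 1 kb. The red curve runs below the grey one up to a crossing near 50 kb, with 50% against 61.5% of genes at 10 kb, and it lies below the dotted one up to 1 kb and above it at 20 kb.

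By the cytological position in the symbol, the members fell into 33 groups, 21 of them with a single gene and 3 with at least 5. The promoter-bound members belonged to 5 groups, 47E, 62B, 65E, 72E and 97E, with 1 bound gene in each. None of the 21 genes alone in their group had a promoter summit, and a count of 0 leaves room for up to 14.3%. Of the 22 members in the 3 large groups, 1 was bound. The share was 23.6% over all genes and 10.2% over those of up to 1 kb. Most members of the large groups are of that length. In 24 of the 33 groups, no optimal summit lay in the span from the first to the last member or within 1 kb of it. Most of these spans are short, and the density over the 6 arms was 0.583 summits per 10 kb. How often spans of like length elsewhere held none was not counted.

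The 49A group, with the most members, was without an optimal summit. Its 8 genes lie over 38.5 kb of 2R (12376626 to 12415170), and the nearest optimal summit was 38627 bp away from the start of Cpr49Aa, 40441 bp from that of Cpr49Ab and 53700 bp at most. The pooled list, which extends to 30000 regions and includes background, held 10 regions there, the strongest with a signal of 85.8, short of the lowest optimal signal of 92.6. The whole lists of replicates 1, 2 and 3 held 8, 12 and 12 regions in this span.

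The 47E group has 7 genes over 26.7 kb of 2R (11251751 to 11278445), with the summit beside Cpr47Ec as its only optimal one. Cpr47Ea and Cpr47Eb were 5675 and 3906 bp from it. The 65A group has 7 genes over 30.3 kb of 3L (6131242 to 6161589), among which lie 9 larval cuticle genes of the Lcp65A series and Acp65Aa. A single optimal summit was found, at 6155318 between genes, 2059 bp from the start of CG13297 and 3312 bp from that of Cpr65Ay, the nearest member. Its signal was 29.2 in replicate 1, 87.9 in replicate 2 and 44.7 in replicate 3, and it ranked 8646 in replicate 1, outside the top list. Cpr65Au and Cpr65Av were 7284 and 15149 bp from a summit. Over the spans plus 1 kb on either side, the summit density was 0.348 per 10 kb in 47E and 0.309 per 10 kb in 65A.

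Some of the smaller groups held denser binding, while most of the smaller groups held no optimal summit. The 65E group, 3 genes over 7.84 kb, held 2 optimal summits between its genes, the one upstream of Cpr65Ea and one at 7090980, 2193 bp from Cpr65Eb and 2224 bp from Cpr65Ec, with signals of 39.8, 50.3 and 79.6. The 97E group of 2 genes also held 2, and the 62B group of 3 genes held the pair in Cpr62Ba, with none near Cpr62Bb or Cpr62Bc, whose starts were 5457 and 12377 bp away. The 76B group of 4 genes held a summit at 19516717, 1615 bp from the start of Cpr76Ba and beyond its 3' end, with signals of 71.0, 65.6 and 96.5. The 64A, 67F and 78C groups of 4, 3 and 3 genes held none.

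**Figure D5:**
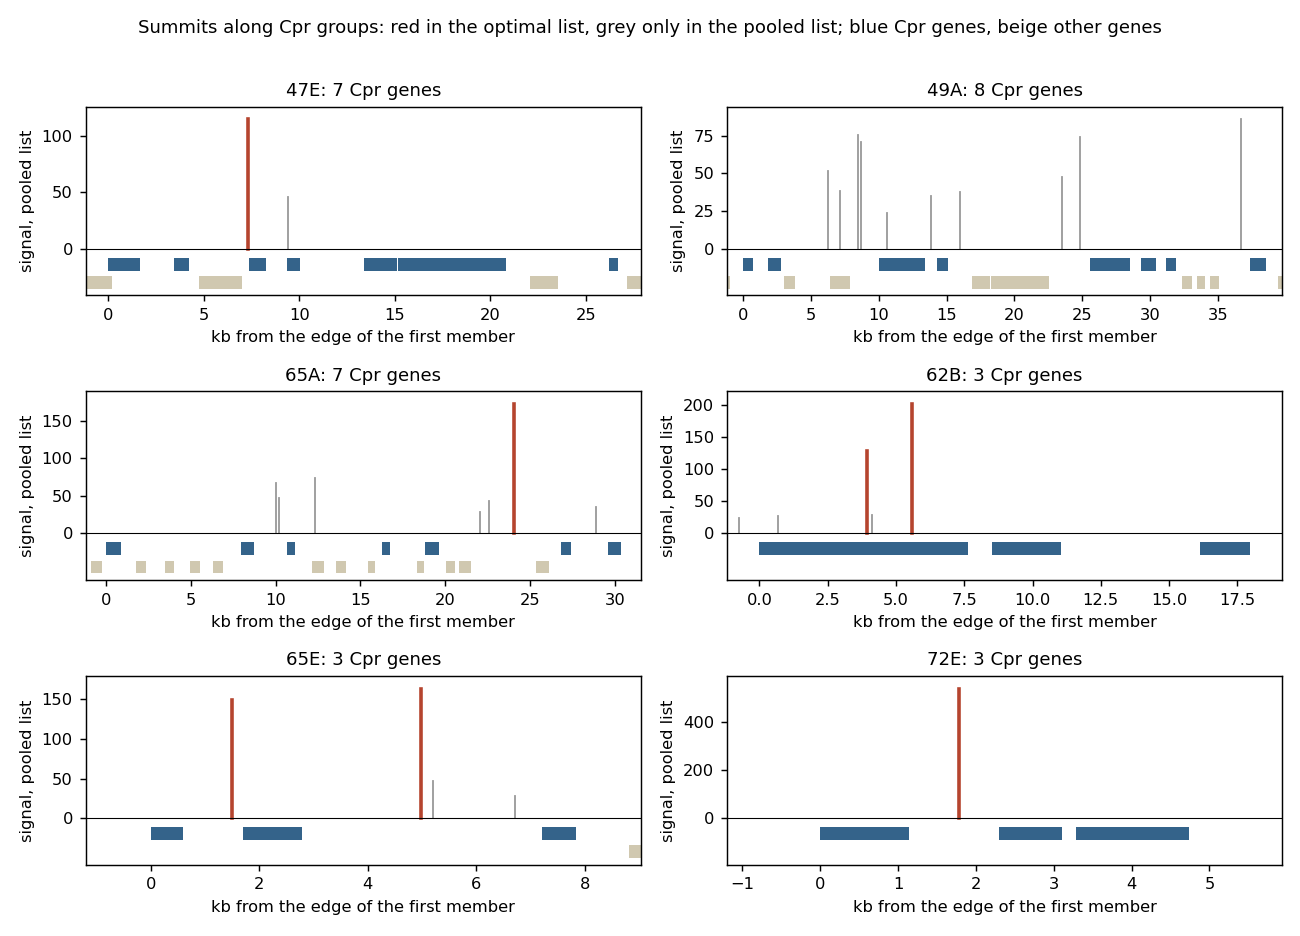
Summits along 6 groups of Cpr genes, with position in kb from the edge of the first member (x axis) and signal in the pooled list (y axis, scaled per panel); red bars are optimal summits, grey bars are summits below the optimal list, blue boxes are Cpr genes and beige boxes other protein-coding genes. The 49A panel has 10 grey bars and no red one, and the bars of 65E and 72E stand between neighbouring Cpr genes.

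Below the optimal threshold, weak regions were found near the remaining members about as often as near other genes. Of the 65 genes without an optimal promoter summit, 17 (26.2%) had one within 1 kb in the pooled whole list, against 23.3% of all genes without an optimal promoter summit. Their median rank was 15644, and 8 of the 17 had one in the whole list of every replicate. With the pooled whole list, 22 of the 70 members had a promoter summit (31.4%), against 41.5% of all genes, and the whole lists of all 3 replicates shared a call for 14 members (20%), against 35.3%. The whole lists of replicates 1, 2 and 3 gave 21, 26 and 25 members, against 45.5%, 46% and 44.7% of all genes. These lists hold background by design, and a region in them is not a call of binding. The strongest was at Cpr49Ah, 628 bp from the start, with a pooled signal of 85.8 and signals of 19.2, 42.5 and 25.8 in the replicates. Next came Cpr73D with a pooled signal of 75.7, and then Cpr49Ae with 74.3. In 35 of the 70 members (50%), no region of the pooled list or of any replicate had its summit within 1 kb of a start, against 43.7% of all genes. Among genes of up to 1 kb this held for 19 of 33 members (57.6%) and 61.5% of all genes.

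A feature that the choice by symbol did not use was frequent in Cpr promoters. Its share in the other cuticle genes was not counted. The hexamer TATAAA, the core of the TATA box at which the general transcription machinery assembles, occurred on either strand in 70% of Cpr promoters, taken as 250 bp before to 50 bp after the outermost start, and in 45.8% of all promoters of that length. On the strand of the gene and beginning 40 to 20 bp before the start, the place of a working TATA box, it was present in 34 members (48.6%), against 7.79% of all protein-coding genes and 18.4% of those of up to 1 kb. That narrower window was chosen after the values over the whole promoter had been seen. Among all genes with TATAAA in that place, 10.9% had an optimal promoter summit, against 24.7% of the genes without it. This contrast was not split by gene length, and of all genes of up to 1 kb 10.2% were bound. Among the Cpr genes, 3 of the 34 with it (8.82%) and 2 of the 36 without it (5.56%) were bound. AGGTCA was found in 3 Cpr promoters (4.29%), those of Cpr47Ed, Cpr67Fb and Cpr72Ec, against 5.88% of all promoters. TAGGTCA was found in 1 (1.43%), against 1.41%, TCAAGGTCA in 0, against 0.122%, and GAGAG in 32.9%, against 29.7%.

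The 60 bp before the outermost start of these same 4 members show this feature, with TATAAA in capitals (dm6, strand of the gene). Cpr62Ba is the one without it. Both summits of Cpr62Ba were counted at the inner of its 2 starts, so the stretch shown is not that of the start that made it bound. The stretches lie at chr3L:1831784-1831843, chr3L:7086609-7086668, chr3L:16364839-16364898 and chr3R:27091131-27091190, in that order.
Cpr62Ba: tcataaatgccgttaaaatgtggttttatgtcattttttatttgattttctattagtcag
Cpr65Ea: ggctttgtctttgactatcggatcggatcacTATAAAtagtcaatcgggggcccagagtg
Cpr72Eb: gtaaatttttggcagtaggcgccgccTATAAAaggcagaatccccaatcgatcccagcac
Cpr97Eb: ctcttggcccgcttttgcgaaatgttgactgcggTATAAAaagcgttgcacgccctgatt
The hexamer begins 29 bp before the start in Cpr65Ea, 34 bp before it in Cpr72Eb and 26 bp before it in Cpr97Eb. The summits of these genes lay 895, 514 and 359 bp upstream and so outside the stretches shown.

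None of the other structural cuticle genes listed had an optimal promoter summit. All the other cuticle lists were chosen with earlier results of these data known, so their counts only describe the genes picked. Of 30 further cuticle protein genes of mixed stages (the Ccp84A, Lcp and Edg genes with Acp1, Acp65Aa, Pcp, Crys and resilin), 0 had an optimal promoter summit (upper limit 10%), against 23.6% of all genes. Their median length is 749.5 bp, and the 10.2% of genes of up to 1 kb lies about at that limit. It is inside the exact 95% interval, whose upper end is 11.6%. Edg84A, the ftz-f1 target, is in this list, and the first without a summit by name were Acp1 and Acp65Aa, 37658 and 2573 bp from the nearest. Of 25 Tweedle genes, which encode another family of cuticle proteins, 0 were bound (upper limit 12%), among them TwdlB and TwdlC, 31300 and 4712 bp from the nearest summit. Of 9 genes of chitin-binding proteins of the obst and Gasp type 0 were bound (upper limit 33.3%), Gasp and obst-A among them at 1525 and 3455 bp, and obst-B held a summit in its body. The Tweedle genes have a median length of 1088 bp. Of all genes of up to 1 kb 10.2% had an optimal promoter summit, and of those of over 1 kb to 2 kb 17%. The exact 95% interval for the Tweedle genes ends at 13.7%, between these shares. The limit for the obst and Gasp list lies above the share of all genes, as does the next. None of 7 tanning genes was bound (upper limit 42.9%), among them Ddc and b, 14693 and 14207 bp from a summit, which act in making the catecholamine and beta-alanine precursors that harden and colour cuticle.

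Genes that build and remodel chitin and the apical matrix were bound more often in the list used. That list, like the others, was chosen with earlier results of these data known, so its share only describes the genes picked. Of 22 such genes, 13 had an optimal promoter summit (59.1%), against 23.6% of all genes, and 10 had a summit in the body, against 15.2%. They included kkv, the chitin synthase gene, mmy, Gfat1 and Gfat2, which act in making its sugar precursor, and knk and rtv, which organise chitin. The strongest peaks were at Duox, a dual oxidase gene (signal 484, 180 bp from the start), Cht7, a chitinase gene (signal 438, 215 bp), and verm, a chitin deacetylase gene (signal 178, 1000 bp, on the limit). Cda5 and Cda9 were the first without one. This list differs from the Cpr genes in length, with a median of 9599.5 bp, and of all genes longer than 5 kb 40.5% had a promoter summit and 44.4% a body summit. The part of gene length in the difference between the lists was not tested.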

How the data were processed

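Per the labels, chromatin from whole prepupae was sheared by sonication to 200 to 800 bp and precipitated with an antibody against GFP, in 3 biological replicates of 1 group. The authors deposited a list of 30000 regions per replicate and for the replicates pooled, and an optimal list of 7803 regions after ranking by IDR. The signal in these lists is the peak caller's value per region as deposited by the authors, made against a control per the file records, and was used only within a list. The depth is unknown, since read numbers, like the aligner, caller and IDR threshold, are not stated in the labels. Ranked by signal, the first 7803 pooled regions are exactly the optimal ones.

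Coordinates are dm6, written 1-based, with a summit at the deposited start plus offset. Genes and starts came from Ensembl release 115, sequence from the RefSeq Release 6 assembly, and no region lay beyond an arm's end. A gene was called bound by a summit within 1 kb of any start. The single group allows no test between conditions, so counts stand beside those over all protein-coding genes. Intervals cover counting error only. Calls were tested on simulated data. Python 3.11.15, numpy 2.4.6, scipy 1.17.1 and matplotlib 3.10.9 were used. The members, lists and motifs were chosen with earlier results of these data known. Named are all members with an optimal summit, the first 2 without one in groups of at least 5, the 3 strongest below the threshold, those nearest to 1 kb, and, per other list, the 3 strongest and first 2 without. Genes outside this rule (Cpr66D, the bound chitin genes, neighbours of summits and holders of AGGTCA) were named after their values were seen. Lists on dm3 were not used.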

Additional observations from a re-analysis of the deposited data

How the results depend on the processing

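The 5 promoter-bound members became 1 at 500 bp, 11 at 2 kb, 2 with the stronger-signal part of the optimal list (3901 peaks) and 22 with all regions of the pooled list. The groups with a bound member, 5, became 1, 8, 2 and 15 under the same settings. At these settings 20.1%, 29.2%, 14% and 41.5% of all genes were bound, above the members' 1.43%, 15.7%, 2.86% and 31.4%. The 4 members with a body summit became 11 with all pooled regions. The median distance of 9710 bp became 16620 bp with that stronger part and 2357 bp with all pooled regions. Without one replicate, keeping optimal peaks in the top lists of both others (5642 to 5815 peaks), it was 13378.5 to 16208 bp (8428 to 8709 bp for all genes), and 4 or 5 members were bound, Cpr47Ec being lost without replicate 1 or 3. Counting any base of a region, merging overlapping regions or using the outermost 5' end left the counts close to those reported (4 to 6 members bound). No paired analysis was possible because there is 1 group. The unknown depth limits what a missing peak shows.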

Other observations

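Cpr66D had a promoter summit in some lists and not in others. In the top lists of replicates 2 and 3 it had a promoter summit, with signals of 39.5 and 36.4 at ranks 6906 and 6755, but neither the whole list of replicate 1 nor the pooled list had a summit within 1 kb of its start.

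The highest 2 of the nearest summits within 5 kb of a Cpr start lay nearer to another gene. The nearest optimal summit to Cpr78Cc, 4001 bp from its start, had a signal of 1569 and rank 36, and lay 77 bp from the start of CG11309. The nearest to Cpr31A, 3219 bp away, had a signal of 953 and rank 137, and lay 532 bp from the start of Pen, which encodes an importin alpha. Both were in the top lists of all replicates. Of the 24 members with an optimal summit within 5 kb, 18 had one whose nearest start was that of a Cpr gene, and these members shared summits, 17 in all for the 24.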
